A study of Mus musculus with 19 samples.

Results

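The 32 genes described here are the enzymes, regulators and transporters of glycolysis, lactate handling and the pentose phosphate pathway, taken by symbol from the 24237 genes of an RNA sequencing study of mouse epididymal white adipose tissue (eWAT). All 32 were found in the table, and 28 of them passed the filter on low values that precedes the tests (the group mean and at least 4 of its mice above 8 FPKM, in any of the diet groups). The other 4, Slc2a1, Eno2, Aldoc and Slc16a3, did not, and are given by their values. Male C57BL6/J mice, 9 to 10 weeks old at the start, were fed for 17 weeks. The 4 diets were normal Mg2+ with low fat (NormMg-LFD, n = 4), low Mg2+ with low fat (LowMg-LFD, n = 5), normal Mg2+ with high fat (NormMg-HFD, n = 5) and low Mg2+ with high fat (LowMg-HFD, n = 5). The low and normal Mg2+ diets held 0.03% and 0.21% (wt/wt) magnesium oxide, and palm oil gave 10% of the energy of the low-fat diets and 60% of that of the high-fat diets. The labels name no genetic change in any group, and 1 library was made from the eWAT of each mouse, so that n counts mice. Values are listed in the order of the replicate numbers, 2 to 5 in NormMg-LFD and 1 to 5 in the other groups. Expression is given as FPKM, fragments scaled to transcript length and to the mapped reads of the library, which allows levels to be set side by side between genes. Differences are on the scale of log2(FPKM + 1), each with its standard error and a Benjamini-Hochberg adjusted p from limma over 8336 tested genes, and a gene is said to have risen or fallen where that p is under 0.05.

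Glycolysis splits glucose into pyruvate and yields ATP, and many of its kinases use ATP bound to Mg2+. Lactate dehydrogenase turns pyruvate into lactate, and monocarboxylate transporters carry lactate across the cell membrane. The pentose phosphate pathway leaves glycolysis at glucose 6-phosphate and makes NADPH, which fat cells use to build fatty acids, and ribose. Several steps are carried by more than 1 gene: hexokinase 2 is known from insulin-responsive muscle and fat, hexokinase 3 from myeloid cells such as macrophages, and hexokinase 1 from most tissues.

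The stretches of 250 bases before the transcription start are shown for 4 genes whose levels carry the comparisons below. Hk2 and Hk3 are shown because they encode the same step and differed in opposite directions, and Pgk1 and Pgam1 because they encode neighbouring steps and differed in the same direction. They and their starts come from RefSeq (build GRCm38.p6), are written 5′ to 3′ on the strand of the gene, and have the letters ACGTG, or CACGT on the other strand, in capitals.
Hk2, chr6:82774455-82774704, minus strand: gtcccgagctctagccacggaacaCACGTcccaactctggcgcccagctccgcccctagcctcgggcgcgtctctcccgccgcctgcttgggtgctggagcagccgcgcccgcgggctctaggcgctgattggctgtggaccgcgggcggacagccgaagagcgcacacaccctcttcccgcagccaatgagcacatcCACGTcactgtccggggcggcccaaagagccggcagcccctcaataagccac
Hk3, chr13:55021386-55021635, minus strand: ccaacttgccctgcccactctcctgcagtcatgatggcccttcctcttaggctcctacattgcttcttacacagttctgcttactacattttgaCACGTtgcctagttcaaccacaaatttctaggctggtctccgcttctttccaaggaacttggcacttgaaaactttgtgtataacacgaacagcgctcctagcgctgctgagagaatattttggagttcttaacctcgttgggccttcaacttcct
Pgk1, chrX:106186850-106187099, plus strand: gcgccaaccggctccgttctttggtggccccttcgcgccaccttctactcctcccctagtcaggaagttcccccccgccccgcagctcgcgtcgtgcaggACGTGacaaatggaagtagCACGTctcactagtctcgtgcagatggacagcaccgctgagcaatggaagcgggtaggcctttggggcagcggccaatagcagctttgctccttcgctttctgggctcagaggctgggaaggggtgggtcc
Pgam1, chr19:41911621-41911870, plus strand: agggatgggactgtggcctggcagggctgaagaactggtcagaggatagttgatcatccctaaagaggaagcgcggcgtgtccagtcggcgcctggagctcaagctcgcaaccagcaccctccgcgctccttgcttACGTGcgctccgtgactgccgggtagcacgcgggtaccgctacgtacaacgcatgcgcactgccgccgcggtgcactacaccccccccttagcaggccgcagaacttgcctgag
The letters ACGTG, the core that hypoxia-inducible factors are known to bind, were found on either strand 2 times in Hk2, 1 time in Hk3, 2 times in Pgk1 and 1 time in Pgam1. All 32 genes matched the promoter table, with 48 starts in all. Of these starts 15 (31.2%), from 12 genes, held ACGTG within 250 bases, against 5444 of all 32851 promoters (16.6%). The longer palindrome CACGTG, which contains ACGTG and is bound by factors of the MYC and ChREBP type, was found at 4 starts, from Ldha, Pfkfb3, Pfkm and Slc16a1 (8.33%), against 1978 of all promoters (6.02%). These matches describe the letters of the windows and were not tested for binding.

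Sequencing depth was even, with 12986441 to 13027028 reads per mouse, of which 86.12% to 90.41% were mapped. Markers of the labelled tissue were present, as Adipoq, the adipocyte hormone adiponectin, lay between 1072 and 2569 FPKM in every mouse. The summed FPKM of 12 macrophage genes was 493 to 627 in NormMg-LFD mice, 380.5 to 732 in LowMg-LFD mice, 2295 to 3607 in NormMg-HFD mice and 659 to 2108 in LowMg-HFD mice. All 12 rose from NormMg-LFD to NormMg-HFD, 10 of 12 rose from LowMg-LFD to LowMg-HFD, and all 12 fell from NormMg-HFD to LowMg-HFD. The summed FPKM of 11 adipocyte genes was 19424 to 31242 over the LFD mice, 13920 to 19007 in NormMg-HFD mice and 18113 to 23045 in LowMg-HFD mice, and 7 of the 11 rose and none fell from NormMg-HFD to LowMg-HFD. In whole tissue, fewer cells of a type and less RNA per cell cannot be told apart. The library labelled LowMg-HFD replicate 4 stood apart by a testis and epididymis list (6 genes, 2095 FPKM against 478 in NormMg-LFD replicate 5, 199 in NormMg-LFD replicate 4, 112 in LowMg-LFD replicate 1 and at most 30.2 elsewhere), and the library labelled NormMg-LFD replicate 3 by exocrine pancreas genes (11 genes, 1708 FPKM against 12.3 to 52.6 elsewhere). The study describes pancreatic RNA in a LowMg-HFD sample that its authors left out of their analysis, whereas here the pancreas genes were high in a NormMg-LFD library. Which deposited library was meant is not given in the sources used here. All 19 mice were kept, so that LowMg-HFD has 5 mice, and the calls of members that change without these libraries are given with each gene.

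**Figure D1:**
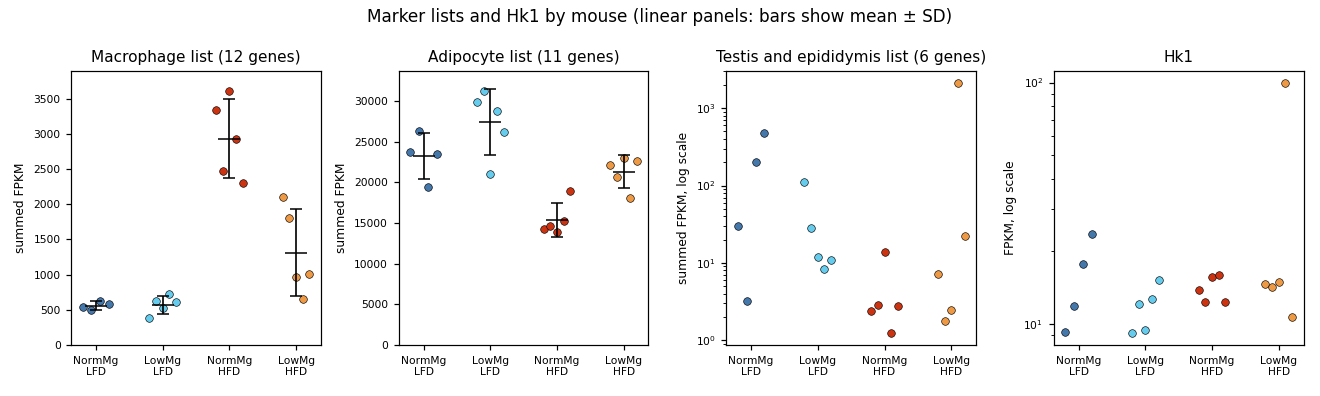
Each point is 1 mouse, with the 4 diet groups on the horizontal axis; the left-hand panels show summed FPKM of the macrophage and adipocyte lists with mean ± SD, and the right-hand panels show the testis and epididymis list and Hk1 in FPKM on log axes. The NormMg-HFD mice have the highest macrophage sums (2295 to 3607), and LowMg-HFD replicate 4 has the highest value of the testis list (2095) and of Hk1 (99.3).

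Of the 28 tested genes, 11 were called between NormMg-HFD and NormMg-LFD (39.3%), 6 higher and 5 lower, against 3114 of all 8336 tested genes (37.4%; 24.6% higher and 12.8% lower), so the share was near that of the background. On low Mg2+, 6 were called between LowMg-HFD and LowMg-LFD (21.4%), 3 higher and 3 lower, against 1329 of all genes (15.9%; 12.4% higher and 3.51% lower). That count was 3 without a filter (3.96% of all genes) and 3 with only the groups compared (8.53%), where the calls of Hk3, Tpi1 and Gapdh were lost. Between LowMg-HFD and NormMg-HFD 10 were called (35.7%), 4 higher and 6 lower, against 1542 of all genes (18.5%; 5.58% higher and 12.9% lower). Without NormMg-HFD replicate 1 or 4 or LowMg-HFD replicate 5 that count was 5, without LowMg-HFD replicate 3 it was 4 and without NormMg-HFD replicate 3 it was 3, while the share of all genes called fell to 11.3% to 13.7%. Without a filter it was 4 (5.1% of all genes). Without LowMg-HFD replicate 4 the 3 counts were 11, 6 and 8, against 39.5%, 17.7% and 16.7% of all genes. With NormMg-LFD replicate 3 left out as well they were 11, 6 and 10, against 33.7%, 16.4% and 16.0%. Of the 28 genes, 23 passed the filter in every group. Hk3 passed in NormMg-HFD alone, Pfkm in both LFD groups, Eno3 in both low Mg2+ groups, Bpgm in LowMg-LFD and NormMg-HFD, and Pfkfb4 in all groups but NormMg-LFD. With the filter at 1 FPKM all 32 were tested and the 3 counts were 11, 6 and 8, against 30.0%, 10.4% and 12.5% of all genes. None was called between LowMg-LFD and NormMg-LFD (0.0% of the members and 0.0% of all genes). The NormMg-HFD mice enter both the first and the third of these comparisons and the LowMg-HFD mice both the second and the third, so their values are set side by side and not counted as separate support. The median log2 difference of the 28 genes was 0.07, -0.07, -0.14 and 0.02 in these 4 comparisons, and that of all tested genes 0.07, 0.10, -0.04 and -0.06.

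**Figure D2:**
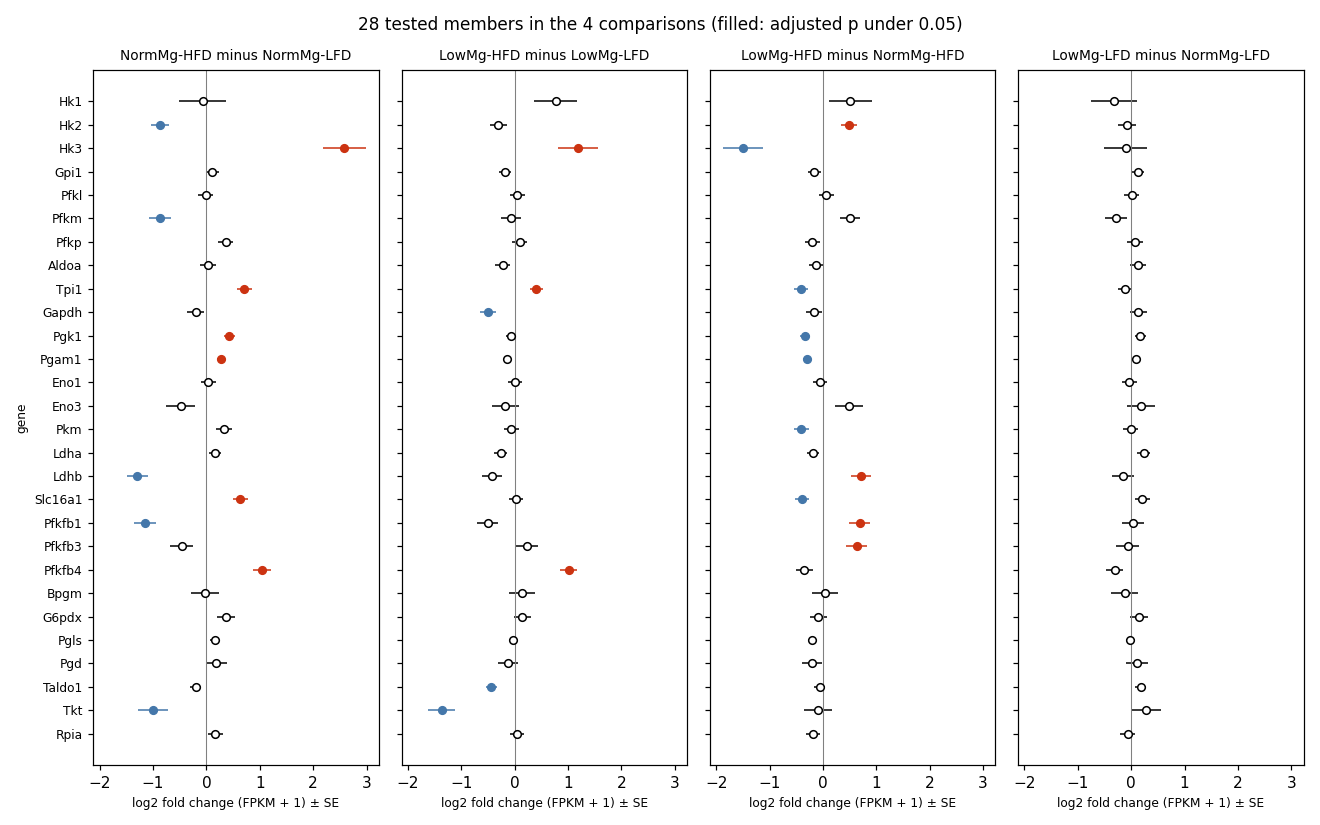
Each row is 1 of the 28 tested genes and each panel 1 comparison; the horizontal axis is the log2 difference of FPKM + 1, bars are ± 1 SE, and filled points have an adjusted p under 0.05 (red higher, blue lower). Hk3 spans the widest range, from 2.59 for NormMg-HFD minus NormMg-LFD to -1.50 for LowMg-HFD minus NormMg-HFD, and no point is filled in the right-hand panel.

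Glucose enters the cell through transporters and is then held there by hexokinase. Slc2a1, the glucose transporter of most cells (GLUT1), was low, with 3.81 to 13.5 FPKM over all mice, and was not tested. Hk2 (chr6:82725025-82774454, minus strand) stood at 24.8, 18.7, 29.1 and 27.7 FPKM in the NormMg-LFD mice and at 23.4, 27.1, 26.9, 20.1 and 20.7 in the LowMg-LFD mice. It stood at 11.4, 15.6, 10.1, 14.2 and 15.1 FPKM in the NormMg-HFD mice and at 13.6, 22.4, 23.9, 18.7 and 17.1 in the LowMg-HFD mice. All 5 NormMg-HFD mice lay below every NormMg-LFD mouse, and 4 of 5 LowMg-HFD mice lay above every NormMg-HFD mouse. Hk2 thus fell with high fat on normal Mg2+ (log2 difference -0.87 ± 0.17 (SE), adjusted p = 0.000404) and was higher in LowMg-HFD than NormMg-HFD mice (0.49 ± 0.16 (SE), adjusted p = 0.0366). On low Mg2+ the difference with fat was -0.31 ± 0.16 (SE), adjusted p = 0.2. The higher level in LowMg-HFD mice was no longer called without NormMg-HFD replicate 1, 3 or 4 or LowMg-HFD replicate 2, 3 or 4 (adjusted p = 0.052 to 0.114), and the adjusted p ran from 0.0108 to 0.114 over 28 alternatives.

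Hk3 (chr13:55005985-55021385, minus strand) went the other way and had the widest differences of the 28 genes in both comparisons that hold the NormMg-HFD mice. It was near the bottom of its range in LFD mice, at 3.32, 2.42, 5.25 and 3.37 FPKM in the NormMg-LFD group and 2.45, 3.09, 2.19, 4.07 and 4.49 in the LowMg-LFD group. In the NormMg-HFD group it reached 28.9, 20.6, 38.1, 23.9 and 21.5 FPKM, and in the LowMg-HFD group it was 25.1, 16.2, 6.45, 2.94 and 4.93. Every NormMg-HFD mouse lay above every LFD mouse, whereas the LowMg-HFD mice spread from the LFD range to the NormMg-HFD range. Hk3 rose with fat on normal Mg2+ (log2 difference 2.59 ± 0.40 (SE), adjusted p = 4.76e-05) and on low Mg2+ (1.19 ± 0.38 (SE), adjusted p = 0.0365), and fell from NormMg-HFD to LowMg-HFD (-1.50 ± 0.38 (SE), adjusted p = 0.00962). Because Hk3 passed the filter through NormMg-HFD alone, where it was high, the fit with the filter at 1 FPKM, which it passes in every group, bears on these calls, and there the adjusted p was 7.52e-05, 0.0499 and 0.0137 in the same order. The first and the last of these calls held without each of the 19 mice in turn. The rise on low Mg2+ was lost without LowMg-LFD replicate 1, 2 or 3 or LowMg-HFD replicate 1 or 2 (adjusted p = 0.0617 to 0.111) and in 4 of 8 other alternatives, median centring, quantile normalization and no filter among them, and its adjusted p ran from 0.00552 to 0.166 over 27 alternatives. With only the low Mg2+ groups fitted, Hk3 did not pass the filter. The same 2 mice that held the highest Hk3 of the LowMg-HFD group, replicates 1 and 2, had its highest macrophage sums (2108 and 1808 FPKM), and replicate 4, with the lowest Hk3, had the lowest sum (659). The part of macrophage content in the Hk3 differences was not tested. An exon of Unc5a, on the opposite strand, overlaps Hk3 in the annotation.

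Hk1 did not pass the test in any comparison, and 1 library stood far above the rest. It was 14.6, 14.2, 14.9, 99.3 and 10.7 FPKM in LowMg-HFD replicates 1 to 5, where the value 99.3 belongs to the library with testis genes, and 9.23 to 99.3 over all mice. Its difference between LowMg-HFD and NormMg-HFD was 0.52 ± 0.41 with that library and -0.04 ± 0.20 without it. As shares of the summed FPKM of the 3 hexokinase genes, Hk2 made up 57.4 ± 6.58% (SD, n = 4) in NormMg-LFD and 61.3 ± 7.98% (n = 5) in LowMg-LFD mice, 25.2 ± 6.84% in NormMg-HFD mice and 37.7 ± 16.6% in LowMg-HFD mice. Hk3 made up 8.11 ± 1.72%, 8.43 ± 2.5%, 48.7 ± 7.5% and 21.9 ± 17.3% in the same order. Hk3 was therefore the leading hexokinase transcript in all 5 NormMg-HFD mice (42.4% to 59.7%) and Hk2 in all 9 LFD mice, whereas in LowMg-HFD replicates 1 to 5 the Hk3 share was 47.1%, 30.6%, 14.3%, 2.43% and 15.1%. The lowest of these is that of replicate 4, where Hk1 took 82.1%, and without this mouse the lowest was 14.3%.

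**Figure D3:**
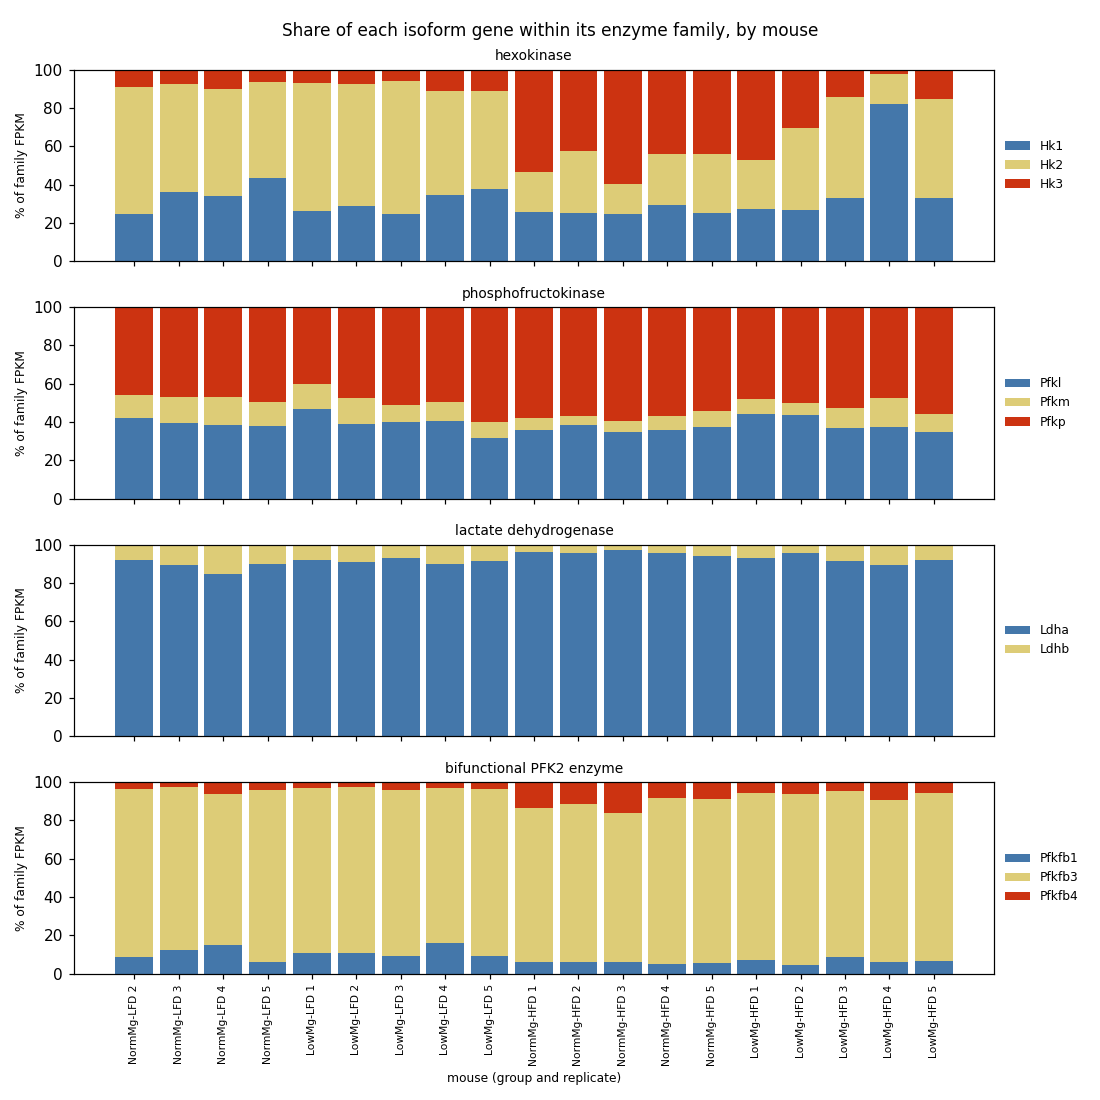
Each bar is 1 mouse and shows the percent that each member makes up of the summed FPKM of the members of its enzyme family, for the hexokinases, phosphofructokinases, lactate dehydrogenases and the bifunctional enzymes that make and break fructose 2,6-bisphosphate. The Hk3 share is 42.4% to 59.7% in NormMg-HFD mice and at most 11.1% in the LFD mice, and Hk1 takes 82.1% in LowMg-HFD replicate 4.

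Upper glycolysis turns glucose 6-phosphate into triose phosphates, and of its 6 tested genes only Pfkm and Tpi1 were called in any of these comparisons. Gpi1, the isomerase that follows hexokinase, and Aldoa, the aldolase that splits the 6-carbon sugar, were high throughout (158 to 259 and 747 to 1495 FPKM), and Aldoc was near 0 (0.1 to 3.73 FPKM). Gpi1 passed no test with all mice. Without LowMg-HFD replicate 4, which had 259 FPKM against 158 to 166 in the others of its group, it was lower in LowMg-HFD than NormMg-HFD mice (-0.29, adjusted p = 0.0201) and than in LowMg-LFD mice (-0.31, adjusted p = 0.0132), and it was called in no other alternative but the one that also leaves out NormMg-LFD replicate 3.

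Phosphofructokinase commits the sugar to glycolysis, and its muscle-type gene Pfkm (chr15:98092589-98132451, plus strand) fell with fat on normal Mg2+ (-0.87 ± 0.20 (SE), adjusted p = 0.0024). Its FPKM was 9.91, 10.4, 14.2 and 10.4 in NormMg-LFD and 5.09, 4.57, 4.96, 6.66 and 7.32 in NormMg-HFD mice, with no overlap. In LowMg-HFD mice it was 7.47, 6.14, 8.14, 16.2 and 7.01, where the highest value is again that of replicate 4, and the difference from NormMg-HFD was 0.51 ± 0.19 (SE), adjusted p = 0.0702, or 0.30 without this mouse. It was called in 4 of 27 alternatives (median centring, quantile normalization, and without NormMg-HFD replicate 5 or LowMg-HFD replicate 2), with an adjusted p from 0.0342 to 0.18. With fat on low Mg2+ the difference was -0.07 ± 0.19 (SE), adjusted p = 0.848, or -0.28 without this mouse (adjusted p = 0.191; 0.191 to 0.985 over 28 alternatives). Pfkm passed the filter through the LFD groups, and with the filter at 1 FPKM its fall on normal Mg2+ had an adjusted p of 0.003. Pfkl and Pfkp, the liver-type and platelet-type genes, were more abundant (25.1 to 41.3 and 30.6 to 59.2 FPKM), and neither was called. Pfkp was above every NormMg-LFD mouse in all 5 NormMg-HFD mice, yet its difference missed the threshold (0.36 ± 0.15 (SE), adjusted p = 0.0655). Its share of the 3 genes was 47.3 ± 1.43% in NormMg-LFD, 49.6 ± 7.06% in LowMg-LFD, 57.1 ± 1.88% in NormMg-HFD and 50.7 ± 3.68% in LowMg-HFD mice.

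Tpi1 (chr6:124810586-124814296, minus strand), which interconverts the 2 triose phosphates, was 271, 232, 254 and 307 FPKM in NormMg-LFD mice and 294, 217, 299, 189 and 243 in LowMg-LFD mice. It was 455, 416, 443, 424 and 432 FPKM in NormMg-HFD mice and 289.8, 389.7, 270.4, 391 and 301 in LowMg-HFD mice. The NormMg-HFD mice lay above every mouse of the 3 other groups. Tpi1 rose with fat on normal Mg2+ (0.71 ± 0.14 (SE), adjusted p = 0.000421) and on low Mg2+ (0.41 ± 0.13 (SE), adjusted p = 0.0368), and fell from NormMg-HFD to LowMg-HFD (-0.42 ± 0.13 (SE), adjusted p = 0.0306). The first call held without each mouse in turn. The second was lost without LowMg-LFD replicate 2, 4 or 5 or LowMg-HFD replicate 2 or 4 (adjusted p = 0.0626 to 0.11), and the third without NormMg-HFD replicate 1, 3 or 4 or LowMg-HFD replicate 1, 3 or 5 (adjusted p = 0.052 to 0.0888). Their adjusted p ran from 0.0192 to 0.179 over 28 alternatives and from 0.0159 to 0.256 over 28 alternatives, and was highest under median centring for the second call and under quantile normalization for the third.

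Lower glycolysis makes ATP on the way to pyruvate, and several of its genes were abundant. Gapdh (374 to 845 FPKM), which is also used as a reference gene in adipose tissue, was not called with Mg2+ on HFD (-0.16 ± 0.15 (SE), adjusted p = 0.492) and fell with fat on low Mg2+ (-0.50 ± 0.15 (SE), adjusted p = 0.031). It was 783, 461, 845, 536 and 554 FPKM in LowMg-LFD and 386, 485, 485, 374 and 470 in LowMg-HFD mice, so that the groups overlapped. That call was lost without LowMg-LFD replicate 1 or 3 or LowMg-HFD replicate 1 or 4 (adjusted p = 0.0633 to 0.0967), and its adjusted p ran from 0.0119 to 0.0967 over 28 alternatives. The 3 enolase genes were not called or not tested, and Eno1 made up 95.5 ± 0.745% of their summed FPKM in NormMg-LFD and 95.1 ± 1.29% in LowMg-HFD mice. Eno2, known from neurons, was 4.69 to 9.53 FPKM in NormMg-HFD and 1.73 to 5.59 in NormMg-LFD mice, and Eno3, known from muscle, 3.45 to 8.74 and 5.51 to 11.5.

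Pgk1 (chrX:106187100-106203699, plus strand), which makes ATP from 1,3-bisphosphoglycerate, was 53.5, 50.5, 67 and 59.5 FPKM in NormMg-LFD and 71.4, 80.4, 88.8, 80.5 and 68.4 in NormMg-HFD mice. It was 68.8, 60.5, 61.2, 72.5 and 60.5 FPKM in LowMg-LFD and 62.2, 71.4, 63.9, 55.9 and 55 in LowMg-HFD mice. Thus all 5 NormMg-HFD mice lay above the NormMg-LFD mice, and 4 of 5 LowMg-HFD values were under the NormMg-HFD range. Pgk1 rose with fat on normal Mg2+ (0.43 ± 0.10 (SE), adjusted p = 0.00277) and was lower in LowMg-HFD than NormMg-HFD mice (-0.33 ± 0.10 (SE), adjusted p = 0.0229), while its difference with fat on low Mg2+ was -0.07 ± 0.10 (SE), adjusted p = 0.677. The lower level in LowMg-HFD mice was not called without NormMg-HFD replicate 3 or 4 or LowMg-HFD replicate 4 or 5 (adjusted p = 0.0524 to 0.074), with an adjusted p from 0.0107 to 0.074 over 28 alternatives.

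Pgam1 (chr19:41911923-41918660, plus strand), the mutase of the next step, varied little between mice of a group. Its FPKM was 106, 99, 99.2 and 104 in NormMg-LFD, 111, 98.8, 117, 105 and 115 in LowMg-LFD, 128, 119, 128, 121 and 121 in NormMg-HFD and 106, 102, 97.7, 90.2 and 102 in LowMg-HFD mice. The NormMg-HFD mice again lay above all others. The log2 difference was 0.27 ± 0.07 (SE), adjusted p = 0.00466, with fat on normal Mg2+, and -0.31 ± 0.06 (SE), adjusted p = 0.00419, between LowMg-HFD and NormMg-HFD. Both calls held without each of the 19 mice in turn, but the first was lost under median centring and quantile normalization, where its difference was as low as 0.10 (adjusted p = 0.00318 to 0.273 over 28 alternatives). On low Mg2+ its difference with fat was -0.13 ± 0.06 (SE), adjusted p = 0.174. It was the only member for which the Mg2+ difference on HFD was itself different from that on LFD (interaction -0.40 ± 0.09 (SE), adjusted p = 0.0464; 1 of 28 members, 3.57%, against 104 of all genes, 1.25%, 0.492% higher and 0.756% lower). That interaction was lost without any 1 of 14 of the 19 mice (adjusted p = 0.0582 to 0.1) and held without LowMg-LFD replicate 1, NormMg-HFD replicate 2 or 5 or LowMg-HFD replicate 1 or 2, and none of the 8 other alternatives kept it.

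Pkm, the pyruvate kinase of the last step, was 252, 239.7, 298, 249 and 207 FPKM in NormMg-HFD mice and 196, 198, 155, 219 and 170.1 in LowMg-HFD mice, with 4 of the 5 low Mg2+ values under the range of the other group. Its fall between them lay at the threshold (-0.41 ± 0.14 (SE), adjusted p = 0.0492). It held without LowMg-LFD replicate 1, 2 or 3, NormMg-HFD replicate 5 or LowMg-HFD replicate 4 and was lost without any 1 of the other 14 mice (adjusted p = 0.0502 to 0.141), and its adjusted p ran from 0.0231 to 0.209 over 28 alternatives. With fat on normal Mg2+ the difference was 0.33 ± 0.15 (SE), adjusted p = 0.0915.

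**Figure D4:**
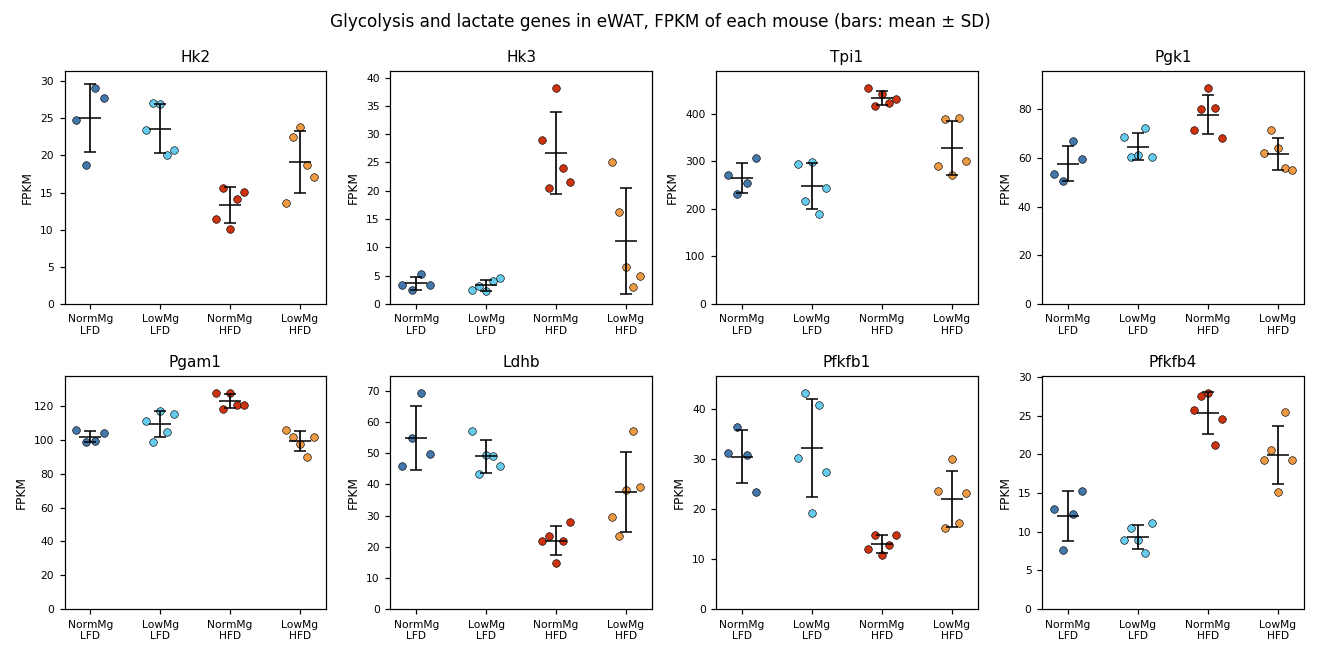
Each panel is 1 gene, each point 1 mouse and the vertical axis FPKM from 0; horizontal ticks and whiskers are mean ± SD. Tpi1 and Pgam1 are above all other mice in the NormMg-HFD group, Hk2, Ldhb and Pfkfb1 are lowest there on average, and Pfkfb4 is on average higher in both HFD groups than in both LFD groups.

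Of the lactate genes, Ldha was the more abundant dehydrogenase (382 to 654 FPKM) and was not called, while Ldhb (chr6:142490249-142507957, minus strand), whose subunit is known from tissues that use lactate, was called. Ldhb was 45.8, 54.8, 69.3 and 49.9 FPKM in NormMg-LFD mice and 57.2, 43.4, 49.5, 49 and 45.9 in LowMg-LFD mice. In NormMg-HFD mice it was 21.9, 23.5, 14.9, 21.8 and 27.9 FPKM and in LowMg-HFD mice 29.6, 23.5, 38.3, 57.3 and 39.3. Every NormMg-HFD mouse was below every LFD mouse, and 4 of 5 LowMg-HFD mice were above every NormMg-HFD mouse. Ldhb fell with fat on normal Mg2+ (-1.29 ± 0.20 (SE), adjusted p = 4.93e-05) and was higher in LowMg-HFD than NormMg-HFD mice (0.71 ± 0.19 (SE), adjusted p = 0.0131), and both calls held without each of the 19 mice. The highest LowMg-HFD value, 57.3 FPKM, was that of replicate 4, and without this mouse the difference was 0.55 (adjusted p = 0.0326; 0.00263 to 0.0479 over 28 alternatives). With fat on low Mg2+ Ldhb differed by -0.43 ± 0.19 (SE), adjusted p = 0.132, with all mice, and fell without LowMg-HFD replicate 4 (-0.59, adjusted p = 0.0206) or without both libraries that stand apart (-0.59, adjusted p = 0.0265), the 2 of 28 alternatives in which it was called (0.0206 to 0.339). The Ldhb share of the summed Ldha and Ldhb FPKM was 11 ± 3.1% in NormMg-LFD, 8.47 ± 1% in LowMg-LFD, 4.22 ± 1.12% in NormMg-HFD and 7.77 ± 2.17% in LowMg-HFD mice.

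Slc16a1, the monocarboxylate transporter MCT1, was 9.15, 12.1, 12.1 and 12.4 FPKM in NormMg-LFD mice and 17.2, 19.5, 20.5, 18.2 and 15.8 in NormMg-HFD mice, which did not overlap, and 13.9, 18.6, 11.4, 14.6 and 10.7 in LowMg-HFD mice. It rose with fat on normal Mg2+ (0.63 ± 0.14 (SE), adjusted p = 0.00167). The fall from NormMg-HFD to LowMg-HFD (-0.39 ± 0.13 (SE), adjusted p = 0.0467) held without any 1 of 7 mice: NormMg-LFD replicate 2 or 4, LowMg-LFD replicate 1, 3 or 4, NormMg-HFD replicate 5 or LowMg-HFD replicate 2. It was lost without any 1 of the other 12 (adjusted p = 0.0531 to 0.13), and its adjusted p ran from 0.00939 to 0.13 over 28 alternatives. Slc16a3 (MCT4), known from strongly glycolytic cells, was low at 0.36 to 9.09 FPKM, with its highest value in NormMg-HFD replicate 3, and was not tested.

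The bifunctional PFK2 enzymes set the level of fructose 2,6-bisphosphate, an activator of phosphofructokinase, and Pfkfb1, Pfkfb3 and Pfkfb4 are the members that encode them. A further gene of the family, Pfkfb2, was 5.36 to 12.35 FPKM and is not a member. Pfkfb3 was the most abundant, at 305, 248, 158 and 349 FPKM in NormMg-LFD and 246, 339, 184, 209.9 and 266 in LowMg-LFD mice. It was 152, 195, 133, 225 and 237 FPKM in NormMg-HFD and 286, 307, 302, 231 and 309.8 in LowMg-HFD mice, where 4 of 5 mice were above every NormMg-HFD mouse. Pfkfb3 was higher in LowMg-HFD than NormMg-HFD mice (0.63 ± 0.20 (SE), adjusted p = 0.036) and was not called with fat (-0.46 ± 0.21 (SE), adjusted p = 0.0976 on normal Mg2+). The call was lost without NormMg-HFD replicate 1 or 3 or LowMg-HFD replicate 1, 2, 3 or 5 (adjusted p = 0.0543 to 0.115), with an adjusted p from 0.0157 to 0.115 over 28 alternatives.

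Pfkfb1 (chrX:150588229-150643878, plus strand), the gene first described in liver and muscle, was 31.1, 36.4, 30.7 and 23.4 FPKM in NormMg-LFD and 30.2, 43.1, 19.2, 40.7 and 27.5 in LowMg-LFD mice. It was 12, 14.8, 10.8, 12.9 and 14.8 FPKM in NormMg-HFD and 23.5, 16.1, 30, 17.2 and 23.2 in LowMg-HFD mice. The NormMg-HFD mice lay below every mouse of the 3 other groups. Pfkfb1 fell with fat on normal Mg2+ (-1.16 ± 0.21 (SE), adjusted p = 0.000213), was higher in LowMg-HFD than NormMg-HFD mice (0.69 ± 0.19 (SE), adjusted p = 0.0193), and differed by -0.51 ± 0.19 (SE), adjusted p = 0.0836, with fat on low Mg2+. The last was called in 4 of 28 alternatives (median centring, quantile normalization, and without LowMg-LFD replicate 3 or LowMg-HFD replicate 3), with an adjusted p from 0.0159 to 0.211. The difference between the HFD groups was lost without NormMg-HFD replicate 3 or LowMg-HFD replicate 3 (adjusted p = 0.0586 to 0.0625), with an adjusted p from 0.0087 to 0.0625 over 28 alternatives.

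Pfkfb4 (chr9:108991778-109032228, plus strand) differed with fat at both Mg2+ levels. It was 13, 7.64, 12.3 and 15.3 FPKM in NormMg-LFD and 25.8, 27.5, 27.9, 21.2 and 24.6 in NormMg-HFD mice. On low Mg2+ it was 8.93, 10.5, 8.92, 7.23 and 11.1 FPKM in LFD and 19.3, 20.6, 15.1, 25.4 and 19.3 in HFD mice. Neither pair of groups overlapped, and Pfkfb4 rose with fat on normal Mg2+ (1.05 ± 0.17 (SE), adjusted p = 6.89e-05) and on low Mg2+ (1.01 ± 0.16 (SE), adjusted p = 0.000733), and both calls held without each of the 19 mice in turn. The difference between LowMg-HFD and NormMg-HFD was -0.35 ± 0.16 (SE), adjusted p = 0.134, and the interaction was -0.03 ± 0.23 (adjusted p = 0.955). Pfkfb4 was called lower in LowMg-HFD in 1 of 28 alternatives, with both libraries that stand apart left out (-0.43, adjusted p = 0.0267; 0.0267 to 0.31 over the alternatives). Bpgm, which makes 2,3-bisphosphoglycerate in red cells, was 7.23 to 23.5 FPKM and was not called, and its highest value, 23.5 FPKM, was in LowMg-HFD replicate 4.

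The oxidative arm of the pentose phosphate pathway makes NADPH through G6pdx, Pgls and Pgd, and none of the 3 was called in any comparison. G6pdx, the first and controlling enzyme, was 90.3 to 175 FPKM, and its difference with fat on normal Mg2+ was 0.37 ± 0.17 (SE), adjusted p = 0.0923. Pgd was 136 to 354 FPKM and Pgls 39.7 to 55.8 FPKM. For Pgd all 5 NormMg-HFD mice lay above every NormMg-LFD mouse, yet the difference was not called (0.18 ± 0.20 (SE), adjusted p = 0.5). Between LowMg-HFD and NormMg-HFD the differences were -0.08 ± 0.16 for G6pdx, -0.21 ± 0.19 for Pgd and -0.21 ± 0.08 for Pgls. Rpia, which makes ribose 5-phosphate, was 8.2 to 15.1 FPKM and was not called.

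Of the sugar-rearranging members Tkt, Taldo1 and Rpia, Tkt was called with fat at both Mg2+ levels, Taldo1 on low Mg2+ and Rpia at neither. Tkt (chr14:30548359-30574720, plus strand), the transketolase, was 456, 287, 212 and 297 FPKM in NormMg-LFD and 743, 240.5, 540.5, 216 and 319.8 in LowMg-LFD mice. In the HFD groups it was 143, 168, 163, 149 and 132 FPKM on normal Mg2+ and 129.6, 121, 154, 155 and 150.5 on low Mg2+. Every HFD mouse lay below every LFD mouse, and the LFD mice varied widely, with LowMg-LFD replicates 1 and 3 the highest. Tkt fell with fat on normal Mg2+ (-0.998 ± 0.28 (SE), adjusted p = 0.00789) and on low Mg2+ (-1.37 ± 0.26 (SE), adjusted p = 0.00224), and both calls held without each of the 19 mice in turn and under every other alternative. Between LowMg-HFD and NormMg-HFD the difference was -0.09 ± 0.26 (SE), adjusted p = 0.849.

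Taldo1, the transaldolase that works beside Tkt, was 402, 268, 325, 269 and 288 FPKM in LowMg-LFD and 219.8, 235, 227, 227 and 222 in LowMg-HFD mice, which did not overlap. On normal Mg2+ it was 307, 279, 223 and 283 FPKM in LFD and 236, 229, 229, 234 and 252 in HFD mice, which did. It fell with fat on low Mg2+ (-0.44 ± 0.10 (SE), adjusted p = 0.00682), a call that held without each mouse in turn, whereas on normal Mg2+ the difference was -0.20 ± 0.11 (SE), adjusted p = 0.156. The difference between those fat effects, the interaction, was -0.24 ± 0.15 (adjusted p = 0.38).

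**Figure D5:**
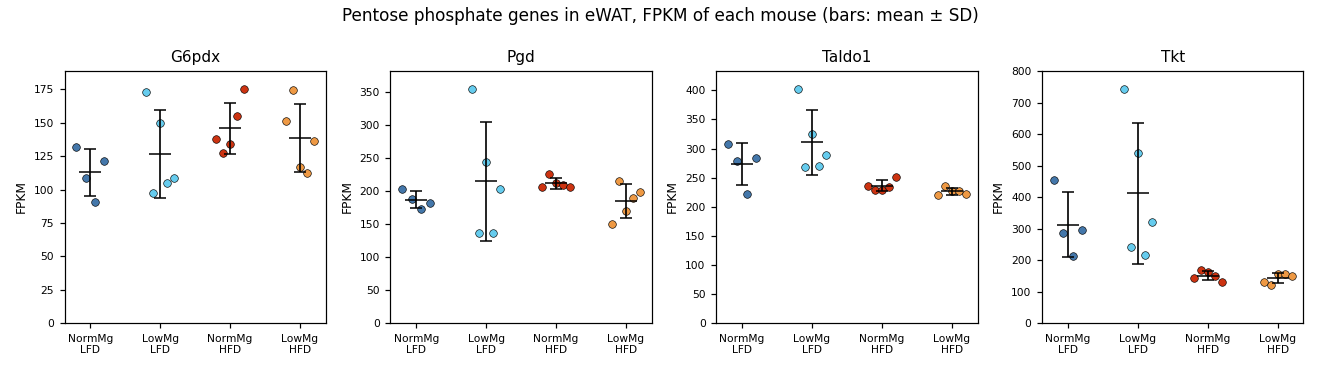
Each panel is 1 pentose phosphate gene, each point 1 mouse and the vertical axis FPKM from 0, with mean ± SD. Tkt is between 121 and 168 FPKM in the HFD mice and between 212 and 743 in the LFD mice, whereas G6pdx and Pgd overlap between all HFD and all LFD mice. On normal Mg2+ alone, the Pgd values of the HFD mice lie above those of the LFD mice.

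On the low-fat diet no difference with Mg2+ was detected in these genes. Of the 28 tested, 0 were called by limma between LowMg-LFD and NormMg-LFD and 0 had an unadjusted p under 0.05, beside 547 of all 8336 genes (6.56%). The differences ran from -0.32 (Hk1) to 0.28 (Tkt), with standard errors from 0.07 (Pgam1) to 0.43 (Hk1), so that changes within these errors cannot be seen with 4 and 5 mice. For the interaction of Mg2+ and fat, 10 of the 28 had an unadjusted p under 0.05, beside 1698 of all genes (20.4%), and the values nearest to the threshold after Pgam1 were those of Pgk1 (-0.50 ± 0.14 (SE), adjusted p = 0.0644), Ldhb (0.86 ± 0.27 (SE), adjusted p = 0.0886) and Slc16a1 (-0.60 ± 0.20 (SE), adjusted p = 0.0932). For the other genes called on HFD, it is not shown that the Mg2+ difference on HFD differs from that on LFD.

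Of 33 further genes of these pathways, 18 were tested, of which 11 were called with fat on normal Mg2+ (3 higher and 8 lower, 61.1% against 37.4% of all genes), 4 with fat on low Mg2+ (all lower, 22.2% against 15.9%) and 6 with Mg2+ on HFD (4 higher and 2 lower, 33.3% against 18.5%). By limma 0 were called with Mg2+ on LFD, where 1 had an unadjusted p under 0.05 (6.56% of all genes did), and 0 for the interaction, where 6 did (20.4% of all genes did). Without both libraries that stand apart the first 3 counts were 10, 4 and 5, against 33.7%, 16.4% and 16.0% of all genes. Slc2a4, the insulin-responsive glucose transporter GLUT4, was 105, 87.5, 77.9 and 96.1 FPKM in NormMg-LFD and 38.6, 39.8, 19.2, 29.3 and 43.4 in NormMg-HFD mice. In LowMg-HFD mice it was 68.2, 62.9, 81, 58.2 and 81.2 FPKM, all above every NormMg-HFD mouse. It fell with fat on normal Mg2+ (-1.45 ± 0.18 (SE), adjusted p = 6.95e-06) and was higher in LowMg-HFD than NormMg-HFD mice (1.07 ± 0.17 (SE), adjusted p = 0.00178), the same directions as Hk2. Mlxipl, which encodes the glucose-sensing factor ChREBP, fell with fat on both Mg2+ levels (-1.26 ± 0.18 and -0.93 ± 0.17) and was higher with low Mg2+ on HFD (0.51 ± 0.17 (SE), adjusted p = 0.0435), a call that was lost without either of the libraries that stand apart. Hif1a, the hypoxia-inducible factor 1 alpha gene, had the reverse pair of directions, 0.70 ± 0.14 with fat on normal Mg2+ and -0.45 ± 0.13 (SE), adjusted p = 0.0218, between the HFD groups. H6pd, which makes NADPH inside the endoplasmic reticulum, differed by -0.70 ± 0.17 and 0.59 ± 0.16 (SE), adjusted p = 0.0154, in the same 2 comparisons.

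Of the genes of pyruvate dehydrogenase and its kinases, Pdha1, a subunit of the enzyme, fell with fat on normal Mg2+ (-0.74 ± 0.14) and on low Mg2+ (-0.71 ± 0.13 (SE), adjusted p = 0.00192). The pyruvate dehydrogenase kinase gene Pdk1 did so too (-0.57 ± 0.20 and -0.70 ± 0.19 (SE), adjusted p = 0.0171), and its first call was lost without NormMg-LFD replicate 3. Pdk4, the kinase gene known to follow fasting and fatty acids, rose with fat on normal Mg2+ (1.67 ± 0.37 (SE), adjusted p = 0.00144). The genes with the phosphoglucomutase symbols Pgm1 and Pgm2 differed in opposite directions with fat on normal Mg2+ and between the HFD groups. Pgm1 rose with fat on normal Mg2+ (0.61 ± 0.15) and fell with low Mg2+ on HFD (-0.80 ± 0.14 (SE), adjusted p = 0.00224). It passed the filter through NormMg-HFD alone, where it was high, and with the filter at 1 FPKM, which it passes in every group, the adjusted p was 0.00312 and 0.00246. Pgm2 differed by -0.61 ± 0.09 and -0.48 ± 0.08 with fat on normal and low Mg2+ and by 0.26 ± 0.08 (SE), adjusted p = 0.0335, with low Mg2+ on HFD.

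Set against the cell type lists, Hk3, Tpi1, Pgk1, Pgam1 and Slc16a1 were higher in NormMg-HFD than in NormMg-LFD mice and were lowered from NormMg-HFD to LowMg-HFD, as were all 12 macrophage genes. Like Hk3, Pfkfb3 is counted as macrophage-type from background knowledge, yet it rose from NormMg-HFD to LowMg-HFD (0.63 ± 0.20 (SE), adjusted p = 0.036). With fat on normal Mg2+ Pfkfb3 was not called (-0.46 ± 0.21 (SE), adjusted p = 0.0976). Slc2a1 and Slc16a3, counted as the same type, were not tested. Hk2, Ldhb and Pfkfb1 were lower in NormMg-HFD than in NormMg-LFD mice and higher in LowMg-HFD than NormMg-HFD mice, comparisons in which 8 of the 11 adipocyte genes fell (and 1 rose) and 7 of the 11 rose (and none fell), in that order. Tkt fell and Pfkfb4 rose with fat at both Mg2+ levels, and neither was called between the HFD groups with all mice. With fat on low Mg2+, where Tkt, Taldo1 and Gapdh fell, 3 of the 11 adipocyte genes fell and 1 rose, and 10 of the 12 macrophage genes rose. The part of the cell types in these differences was not tested.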

How the data were processed

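RNA from eWAT of 19 mice was sequenced by the authors as 50 bp single-end reads, 1 library per mouse. Reads were mapped to the mouse transcriptome (GRCm38) with HISAT and Bowtie2, and the authors deposited the FPKM of 24238 genes from RSEM 1.2.31, with the count of total reads and the percent of reads mapped in each library. Of these genes, 1 with a cell that could not be read as a number was dropped, and 26 symbols turned into dates were restored from gene identifiers. FPKM are not counts, so that count models were not used, and precision rests on the spread between mice. Whether counting used strand is not given in the sources used here. Exons of Slc2a1, Hk1, Hk3, Gpi1, Pfkm, Pfkp, Aldoa, Tpi1, Gapdh, Pfkfb1 and G6pdx overlap a gene on the opposite strand, those of Pfkm, Pkm, Pgls and Tkt one on the same strand, and many glycolytic genes have processed pseudogenes, so that their reads may be shared.

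Values were taken as log2(FPKM + 1). The 8336 genes that passed the filter (the mean of a group, and 4 or more of its mice, above 8 FPKM) were fitted over all 4 groups with limma 3.58.1 under R 4.3.3, the variance prior following intensity. Contrasts were the effect of fat at each Mg2+ level, of Mg2+ at each fat level, and their interaction. P values are two-sided and Benjamini-Hochberg adjusted over all tested genes. The script was tested on simulated data with known changes. All 32 members are named, grouped by role, and the members, the further genes and the marker lists were chosen with earlier results of these data known. Of 2 rows with the symbol Itgam, the one with the higher mean was read. Gene coordinates are those of GENCODE M21 (GRCm38), and promoter windows those of RefSeq (GRCm38.p6). Alternatives were a pseudocount of 0.1, a filter at FPKM 1 or none, median centring, quantile normalization, no intensity trend, only the groups compared, the replicate number as a block, each mouse left out in turn (in a group left with 3 mice, all 3 had to pass the filter) and, chosen after seeing the data, both libraries that stand apart left out. Python 3.11.15 and matplotlib 3.10.9 drew the figures.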

Additional observations from a re-analysis of the deposited data

Results flagged for a closer look

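In 7 of 128 combinations of a member and a diet group, 1 mouse lay far from the others by Dixon's test at the 95% level on log2(FPKM + 1), where chance gives about 1 in 20. LowMg-HFD replicate 4 accounts for 4 of them: Hk1 (99.3 FPKM against 10.7 to 14.9 in the others of its group), Gpi1 (259 against 158 to 166), Pfkm (16.2 against 6.14 to 8.14) and Pfkfb3 (231 against 286 to 309.8). This is the library with the testis genes described above. Their part in these values was not tested. Pfkm was also high in NormMg-LFD replicate 4 (14.2 FPKM against 9.91 to 10.4), Slc16a1 was low in NormMg-LFD replicate 2 (9.15 against 12.1 to 12.4), and Bpgm was low in LowMg-LFD replicate 2 (7.62 against 10.01 to 10.6).

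For Pgam1 the Mg2+ difference on HFD differed from that on LFD (log2 -0.40, adjusted p = 0.0464 by limma) with all mice. This call was lost without any 1 of 14 of the 19 mice and in all 8 other alternatives, with an adjusted p from 0.0224 to 0.104 over 27 alternatives. On HFD all 5 low Mg2+ mice were below all 5 normal Mg2+ mice, whereas on LFD the groups overlapped.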

How the results depend on the processing

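Of 782 repeats of the 28 calls named above under the alternatives, 658 kept the direction and the call, 124 kept the direction and lost the call, and 0 turned round. With fat on normal Mg2+ 306 of 308 repeats kept the call, with Mg2+ on HFD 207 of 280. Members called between LowMg-HFD and NormMg-HFD numbered 10, 4 without a filter and 3 to 11 without 1 mouse (3 without NormMg-HFD replicate 3, 4 without LowMg-HFD replicate 3, and 5 without NormMg-HFD replicate 1 or 4 or LowMg-HFD replicate 5). With fat on low Mg2+ they numbered 6, 3 without a filter or with only the groups compared, and 4 to 7 without 1 mouse. With fat on normal Mg2+ they numbered 11, 14 with only the groups compared (Pfkp, Pkm and G6pdx added), 12 with quantile normalization, 10 with median centring and 11 to 13 without 1 mouse. With Mg2+ on LFD they were 0 throughout, 0 to 0 without 1 mouse. The interaction had 1, and 0 with a pseudocount of 0.1, a filter at FPKM 1, no filter, quantile normalization, no intensity trend, the replicate block or both libraries that stand apart left out, 1 with median centring, where it was Pgk1 in place of Pgam1, and 0 to 4 without 1 mouse. No filter tests 24237 genes, so that the adjustment is over more genes. For all genes, calls on low Mg2+ with fat fell from 1329 to 960 without a filter and 665 with only the groups compared, calls between the HFD groups ranged from 921 (without NormMg-HFD replicate 3) to 1679, and the interaction gave 104 with all mice and 0 to 482 without 1 mouse.

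Median centring moved the median log2 difference of all tested genes from 0.07 to -0.03 with fat on normal Mg2+ and from 0.10 to -0.01 with fat on low Mg2+, so that rises with fat are smaller relative to the other genes. Without both libraries that stand apart, 10 members were called between the HFD groups, 8 of them among the 10 named, with Pgk1 and Slc16a1 lost and Gpi1 and Pfkfb4 added. With the replicate block the counts were 11, 4, 7, 0 and 0 for fat on normal Mg2+, fat on low Mg2+, Mg2+ on HFD, Mg2+ on LFD and the interaction, with an adjusted p of 0.0523 for Hk3 with fat on low Mg2+. Other calls gained were those of Pfkp (4 of 28 alternatives), Pfkfb3, Taldo1 and Pkm (2 each) and G6pdx (1) with fat on normal Mg2+, Pgam1 (2) with fat on low Mg2+, Pgls (2) and Eno3 (1) between the HFD groups, and Pgk1 (3 of 27), Hk3, Ldhb and Slc16a1 (1 each) for the interaction. Same-numbered mice of different groups did not deviate together (27 pairs, correlation -0.183 to 0.339, median 0.0032), so the numbers were not read as pairs. Depth was even, and read counts per gene are not among the values used, so that no counting interval is given.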

Other observations

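The library labelled LowMg-HFD replicate 4 also held the glycolytic genes that are known from sperm. Ldhc, the lactate dehydrogenase of the testis, was 355 FPKM there and at most 37.1 in any other mouse. Gapdhs was 151 FPKM against at most 29.4, and Pgk2, a retrogene of Pgk1, was 59.4 FPKM against at most 12.3. For all 3 the next highest mouse was NormMg-LFD replicate 5, which also had the next highest sum of the testis and epididymis list (478 FPKM). The protamine genes Prm1 and Prm2, which pack sperm DNA, were 696 and 871 FPKM in LowMg-HFD replicate 4 and 188 and 170 FPKM in NormMg-LFD replicate 5, and at most 7.3 and 3.13 FPKM in NormMg-HFD mice.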
